A study of Equus caballus with 24 samples.

Results

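The growth hormone gene, GH, split 12 horse pituitary libraries into a hormone-rich class of 7 and a hormone-poor class of 5, which are set against each other here across all genes. The classes were chosen by the GH reads themselves. A library was called hormone-rich above 1000 reads per 1000000 reads on genes (CPM) and hormone-poor below 100 CPM, and no library fell between. The series holds 24 RNA-seq libraries in all, 12 of pituitary and 12 of the epiphysis of a long bone, from female Debao ponies (DP), a small Chinese breed, and Mongolian horses (MH), a taller one. Each breed was sampled as juveniles and as adults, with 3 libraries of each tissue in each of these groups, and the tissues came from untreated animals at slaughter. The pituitary groups are juvenile DP (DPPJ), adult DP (DPPA), juvenile MH (MHPJ) and adult MH (MHPA). The hormone-rich class held DPPJ 1, 2 and 3, DPPA 2 and 3, and MHPA 2 and 3. The hormone-poor class held DPPA 1, MHPA 1 and MHPJ 1, 2 and 3. Thus 5 of 6 DP libraries and 2 of 6 MH libraries were hormone-rich, with all 3 DPPJ on one side and all 3 MHPJ on the other. The lobe or portion of the gland that was ground for RNA is not given in the sources used here.

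The pituitary joins tissues of different origin. The anterior lobe is built of hormone cells: somatotrophs make growth hormone, lactotrophs prolactin, corticotrophs adrenocorticotropin from the POMC precursor, gonadotrophs luteinising and follicle-stimulating hormone, and thyrotrophs thyrotropin. The intermediate lobe is made of melanotrophs, which also read POMC, under the factor PAX7, and cut its product further with the protease PCSK2. The posterior lobe is nervous tissue: axons that descend from the hypothalamus release vasopressin (AVP) and oxytocin (OXT) among pituicytes, a form of astrocyte. In bulk tissue, fewer cells of a type and less RNA per cell cannot be told apart.

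On the log2(CPM + 1) scale over all genes considered, Pearson's r across genes ran from 0.952 to 0.982 between pairs of hormone-rich libraries. Between pairs of hormone-poor libraries it ran from 0.75 to 0.968, and between the classes from 0.776 to 0.902. DPPA 1, MHPJ 1 and MHPJ 3 were near each other, with r of 0.948, 0.946 and 0.968, close to or within the hormone-rich range. MHPA 1 had r of 0.878 to 0.906 to these 3. MHPJ 2 stood apart from its own class, with a median r of 0.785 to the other hormone-poor libraries, and DPPJ 2 was the hormone-rich library nearest to the other class, with r up to 0.902. Genes are not independent replicates, so these r are descriptions. Reads on genes numbered from 14238026 to 23573036 in the hormone-rich libraries and from 11433209 to 21638458 in the hormone-poor ones. The share of reads on mitochondrial genes was 7.43% to 12.2% in the first class, with a median of 8.66%, and 10.1% to 18.1% in the second, with a median of 12.4%. Its part in the differences below was not tested.

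GH encodes the hormone of the somatotrophs that drives body growth through the liver and the growth plate. Its lowest level in the hormone-rich class was 6723 CPM in MHPA 2, the median was 13202 CPM and the highest level was 23473 CPM in DPPJ 3. In the hormone-poor class GH was at 6.56 CPM in DPPA 1, 0.357 in MHPA 1, 0 in MHPJ 1, 3.59 in MHPJ 2 and 0.129 in MHPJ 3, which are 142, 5, 0, 41 and 2 reads. The nearest libraries on either side of the thresholds were therefore MHPA 2 and DPPA 1. In the 12 long bone libraries GH lay between 0.148 and 22 CPM with a median of 0.929. All 5 hormone-poor pituitary libraries were inside or below that range. The paper describes high GH expression in long bone too, so bone is not taken here as a tissue without GH. The pituitary GH values chose the classes and are given without a test.

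**Figure D1:**
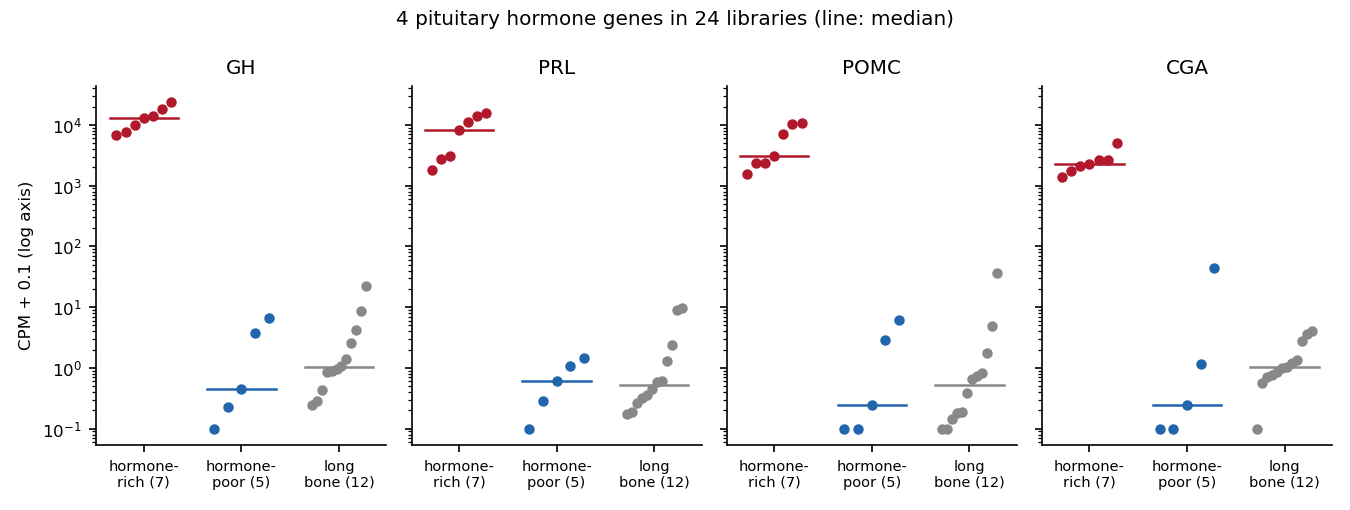
CPM of GH, PRL, POMC and CGA (0.1 added, log axis) in the 7 hormone-rich pituitary, 5 hormone-poor pituitary and 12 long bone libraries, with 1 point per library and a line at each median. In every panel the hormone-rich points lie above 1000 CPM, and the hormone-poor points lie among or near those of long bone, apart from CGA in DPPA 1 at 44.8 CPM.

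Of 14509 genes considered, those with at least 1 CPM in 3 or more pituitary libraries, 855 were higher in every hormone-rich library than in every hormone-poor one and at least 2-fold apart in the class medians with 1 CPM added. That is 5.89% of the genes. Another 599 genes, or 4.13%, were lower by the same rule. At least 8-fold separated 96 of the higher and 85 of the lower genes. Since the classes were chosen on the same libraries, these counts describe the classes and carry no p-value. A gene near 0 in one class passes the expression filter through the other class alone, which favours its being counted. The balance of directions moved with the scaling: 58.8% of the counted genes were higher with CPM, 48% with TMM-scaled library sizes (681 higher and 737 lower), 44.6% with DESeq2 size factors (626 and 778) and 65.3% with the deposited RPKM (945 and 502). The median log2 fold over all genes was 0.127 with CPM, 0.030 with TMM, 0.002 with size factors and 0.194 with RPKM. Without MHPJ 2 the counts were 1106 higher and 1146 lower, or 7.68% and 7.96% of the genes then considered. Of these, 799 and 576 were shared with the counts from all 12 libraries. Without MHPJ 2 and DPPJ 2 the counts were 1164 and 1255, or 8.11% and 8.75%. The list counts given below without these libraries stand beside these larger shares.

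All 6 anterior hormone genes besides GH were higher in every hormone-rich library, with a median log2 fold of 9.41 against 0.127 over all genes. PRL, the prolactin gene, ran from 1800 CPM in DPPA 3 through a median of 8192 to 15472 CPM in DPPJ 1. In the hormone-poor class PRL was at 1.34 CPM in DPPA 1, 0.5 in MHPA 1, 0.186 in MHPJ 1, 0.962 in MHPJ 2 and 0 in MHPJ 3. The classes did not overlap, and their medians were 5463-fold apart with 1 CPM added. POMC, the precursor of adrenocorticotropin and the melanotropins, ran from 1581 to 10573 CPM with a median of 3086 in the first class. It was at 6.15 CPM in DPPA 1, 0.143 in MHPA 1, 2.8 in MHPJ 2, and 0 in MHPJ 1 and MHPJ 3.

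CGA, the alpha subunit that the gonadotropins and thyrotropin share, had the highest level per length of the 7 hormone genes in DPPA 1, at 90.7 RPKM. It ran from 1371 to 5070 CPM with a median of 2304 in the hormone-rich class. In the hormone-poor class it was at 44.8 CPM in DPPA 1, 0.143 in MHPA 1, 1.05 in MHPJ 2, and 0 in MHPJ 1 and MHPJ 3. FSHB, the specific subunit of follicle-stimulating hormone, ran from 53.5 to 359 CPM with a median of 229, against at most 0.0875 CPM in the hormone-poor libraries. LHB, that of luteinising hormone, ran from 17.9 to 160 CPM with a median of 47.2, against 0.693, 4.64, 0.929, 4.72 and 1.03 CPM in DPPA 1, MHPA 1 and MHPJ 1 to 3. LHB was the hormone gene that every hormone-poor library had reads of, and its long bone median was 0.117 CPM. TSHB, the specific subunit of thyrotropin, had no read in any hormone-poor library and from 21 to 535 reads in the hormone-rich ones, 0.891 to 37.6 CPM with a median of 6.02. Against a floor of 3 reads per library, taken in the shallowest hormone-poor library, the hormone-rich median of TSHB was at least 23-fold higher and its lowest level at least 3.4-fold higher. With TSHB at that bound the list median stayed 9.41.

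The 7 hormone genes with GH took 1.45% to 4.13% of all reads on genes in the hormone-rich libraries and 0.000111% to 0.00596% in the hormone-poor ones. By RPKM, which allows for gene length, POMC had the highest level of the 7 in DPPJ 1, DPPA 2 and MHPA 2, and GH in DPPJ 2, DPPJ 3, DPPA 3 and MHPA 3. POMC reached 23294 RPKM in DPPA 2 beside 10166 RPKM for GH. TSHB was the lowest of the 7 hormone genes, at 1.58 to 37.7 RPKM, in every hormone-rich library but MHPA 3, where TSHB was at 64.2 and LHB at 26.4 RPKM.

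Of the factors that build and maintain the anterior lobe, 20 of 22 listed were found, 17 passed the expression filter, and 13 of the 17 were higher by the counting rule and none lower, at a median log2 fold of 4.57. POU1F1, the factor of the somatotroph, lactotroph and thyrotroph lineage, ran from 110 to 282 CPM with a median of 171, and in the hormone-poor class it was at 0.0924 CPM in DPPA 1, 0.262 in MHPJ 2 and 0 in the other libraries. PITX1, a homeobox factor of the early gland, ran from 196 to 320 CPM and was at 23.7 CPM in DPPA 1, 11.5 in MHPJ 2 and 2.07 or less in the other hormone-poor libraries. DPPA 1 was thus the hormone-poor library with the highest level of PITX1.

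LHX3, a LIM factor of the early gland, was 38-fold apart in the class medians and SIX6, a homeobox factor of the pituitary and eye fields, 25.6-fold apart. In DPPA 1 LHX3 stood at 5.7% of the hormone-rich median and SIX6 at 15.2%, and in the other hormone-poor libraries both stood at 0.331% or less. NR5A1, the gonadotroph factor, had a narrow range in the hormone-rich class, from 15.5 to 29.7 CPM, and was at most 0.647 CPM in the other. TBX19, the factor of the POMC lineages, and PAX7, that of the melanotrophs, were 57.7-fold and 9.29-fold apart. NEUROD4 was 42.4-fold, NEUROD1 11.1-fold, EYA1 6.01-fold and EYA4 2.83-fold higher. EYA1, a transcriptional coactivator, was read in every hormone-poor library, at 6.11% to 20.2% of the hormone-rich median.

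GATA2, ISL1 and OTX2 were among the factors that were not counted. GATA2 overlapped through DPPA 1 at 13.4 CPM, and ISL1 through DPPA 1 at 25.8 CPM. OTX2, which choroid plexus cells use as well, overlapped through MHPA 1 at 150 CPM, above the hormone-rich maximum of 32.6 CPM. LHX4, HESX1 and INSM1 were found but were too low to be considered.

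**Figure D2:**
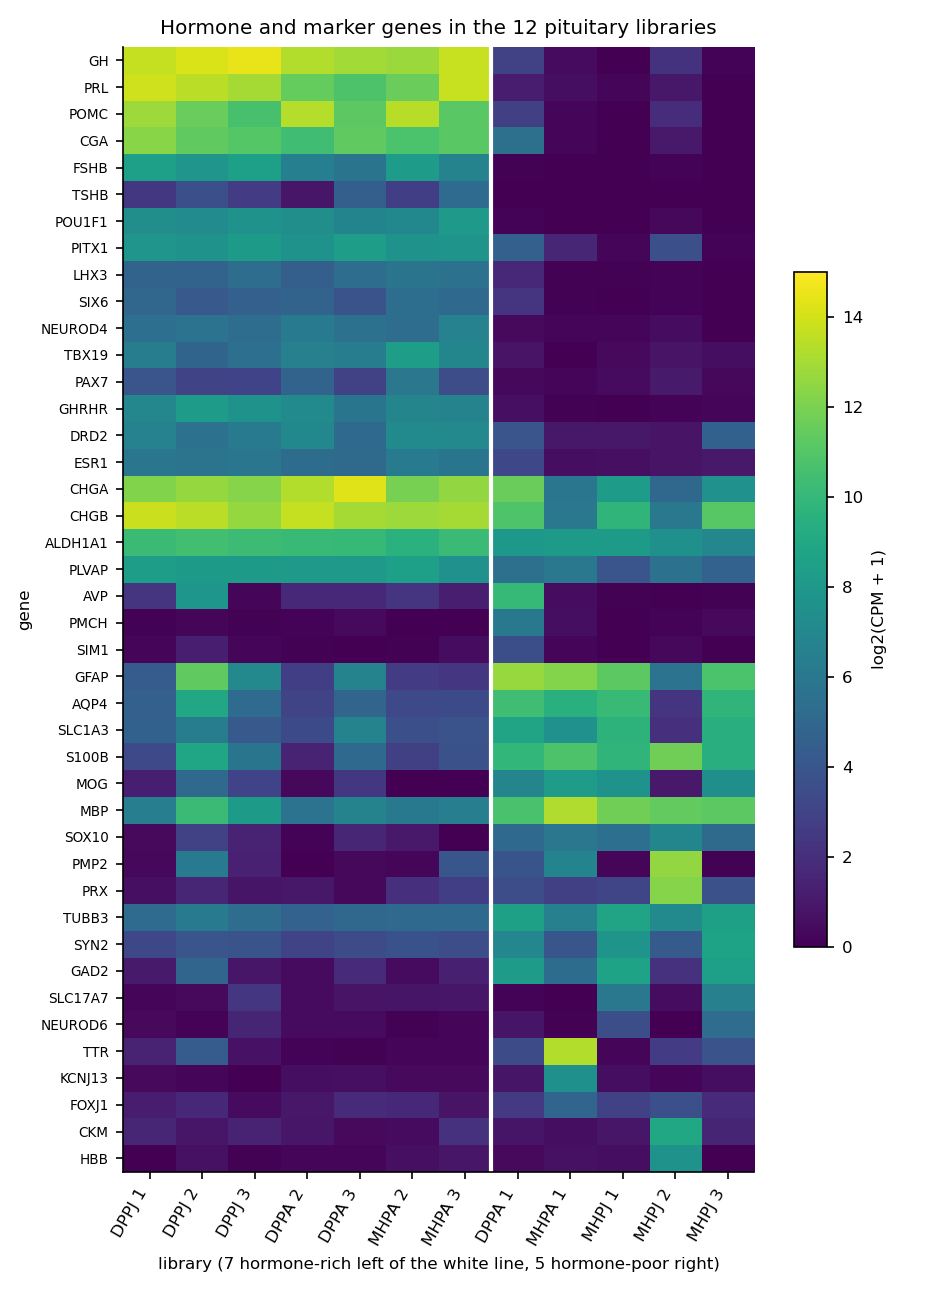
log2(CPM + 1), shown as colour, of hormone and marker genes (vertical axis) in each pituitary library (horizontal axis), the 7 hormone-rich ones left of the white line and the 5 hormone-poor ones right of it. The block of hormone genes, anterior lobe factors and receptors is bright on the left and dark on the right. Most glial and central myelin genes are brighter on the right and in DPPJ 2, but AQP4, SLC1A3 and MOG are dark in MHPJ 2. Single hormone-poor libraries have bright genes that the others lack, such as PMP2 in MHPJ 2 at 6088 CPM and TTR in MHPA 1 at 9995 CPM.

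Receptors through which the hypothalamus and the peripheral hormones steer the gland separated the classes less completely. Of 15 listed, 11 passed the filter, and 6 were higher and none lower, at a median log2 fold of 2.93. GHRHR, through which growth hormone-releasing hormone acts on somatotrophs, ran from 55 CPM in DPPA 3 through a median of 120 to 297 CPM in DPPJ 2, and was at 0.508, 0.0714, 0, 0.0875 and 0.193 CPM in DPPA 1, MHPA 1 and MHPJ 1 to 3. The ghrelin receptor GHSR was 7.41-fold, the thyrotropin-releasing hormone receptor TRHR 9.75-fold and the gonadotropin-releasing hormone receptor GNRHR 2.97-fold higher with 1 CPM added. ESR1, an oestrogen receptor, ran from 35.6 to 69 CPM and was at 8.36 CPM in DPPA 1 and at most 1.03 CPM in the other hormone-poor libraries. DRD2, the dopamine receptor that restrains prolactin release, ran from 34 to 141 CPM and had the narrowest margin of the 6 over the second class, where MHPJ 3 had 23.9 CPM and DPPA 1 14.7 CPM.

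CRHR1, the corticotropin-releasing hormone receptor, overlapped between the classes through MHPJ 1 at 24 CPM and MHPJ 3 at 14.4 CPM, libraries whose POMC was at 0. PRLR, the prolactin receptor, overlapped through MHPA 1 at 101 CPM. The somatostatin receptors SSTR1, SSTR2 and SSTR3 had medians of 1.64 CPM or less in the hormone-rich class, with a log2 fold of 0.02 for SSTR2 and of -1.23 for SSTR3. The direction of SSTR2 turned with TMM and size factors, when 8 rather than 9 of the 11 receptors lay above 0. Without MHPJ 2 the median log2 fold of the receptors was 2.20, with 6 higher and 1 lower.

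Granins and the enzymes that cut prohormones are shared by endocrine cells and neurons. Of 14 considered, 3 were higher and none lower, at a median log2 fold of 1.53, with 2 higher under TMM and 4 with RPKM. CHGA, the main granin of endocrine granules, ran from 3904 CPM in MHPA 2 through a median of 6085 to 20025 CPM in DPPA 3, and was at 3018, 57.9, 294, 32.8 and 190 CPM in DPPA 1, MHPA 1 and MHPJ 1 to 3. DPPA 1 therefore held CHGA at 49.6% of the hormone-rich median while its GH stood at 0.0497% of that median. CHGB was 9.1-fold and SCG5, a chaperone of PCSK2, 4.13-fold higher. Leaving out 1 hormone-poor library moved the fold of CHGB, to 5.87-fold without MHPA 1 or MHPJ 2 and 17-fold without DPPA 1 or MHPJ 3. SCG2 overlapped, at 161% of the hormone-rich median in DPPA 1 and 4.54% in MHPA 1, and SCG3 overlapped at 126% in DPPA 1 and 98.4% in MHPJ 3. CPE, a carboxypeptidase that trims peptides after cutting, had a log2 fold of -1.75, with 1747, 1231, 2017, 70.8 and 1848 CPM in the hormone-poor libraries and at most 833 CPM in the other class. Its order was broken by MHPJ 2 alone. Without MHPJ 2, 1 of the 14 was counted lower.

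Of the 12 largest counted folds, the genes outside the hormone, factor and receptor lists were DLK1, ARHGAP36 and EPCAM. DLK1, a membrane protein of the Notch ligand family that marks endocrine progenitors and somatotrophs, ran from 440 to 998 CPM with a median of 717. It was at 73.7 CPM in DPPA 1, 3.32 in MHPJ 2 and 0 in the other hormone-poor libraries. ARHGAP36, a regulator of protein kinase A and Hedgehog signalling, ran from 1571 to 2973 CPM with a median of 2165, and was at 63 CPM in DPPA 1, 26.5 in MHPJ 2 and at most 2.89 in the other hormone-poor libraries. EPCAM, an adhesion molecule of epithelia, ran from 539 to 797 CPM, the narrowest of these ranges, and was at 28.4, 3.07, 3.78, 41.2 and 6.05 CPM in DPPA 1, MHPA 1 and MHPJ 1 to 3. In all 3 genes DPPA 1 or MHPJ 2 had the highest level among the hormone-poor libraries.

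Retinoic acid, which the gland can make for itself, was covered by 12 genes, of which 2 were higher. ALDH1A1, which makes retinoic acid, ran from 754 to 1417 CPM against 122 to 285 CPM, and its relative ALDH1A2 ran from 49.9 to 126 CPM against 2.62 to 46.1 CPM. ALDH1A2 was highest among hormone-poor libraries in MHPA 1, and with TMM or size factors only 1 of the 12 was counted. Of 10 endothelial genes only PLVAP, the diaphragm protein of fenestrated capillaries, was higher, at 188 to 347 CPM with a median of 282 against 45.8, 62.4, 14.7, 47 and 24.8 CPM. The general endothelial genes overlapped: PECAM1 had class medians 1.38-fold apart and VWF was highest in MHPJ 2, at 402 CPM. The list median was -0.04, and 0.04 with RPKM. Without MHPJ 2, 2 of the 10 were counted higher.

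Among the hormone-rich libraries, the genes of the POMC lineages varied more than GH did. POMC was 6.69-fold, TBX19 11.8-fold, PAX7 9.25-fold and PCSK2 6.93-fold higher in the highest than in the lowest library, while GH varied 3.49-fold, PITX1 1.63-fold and EPCAM 1.48-fold. Such spread was not particular to the POMC lineages. LHB varied 8.91-fold, FSHB 6.72-fold, GATA2 5.78-fold and GHRHR 5.4-fold, whereas POU1F1 varied 2.56-fold and LHX3 2.31-fold. MHPA 2 had the highest level of all 4 POMC lineage genes, with 10573 CPM of POMC, 330 of TBX19, 61 of PAX7 and 462 of PCSK2. DPPA 2 came next for POMC with 10506 CPM, for PAX7 with 26.8 CPM and for PCSK2 with 377 CPM, but its TBX19, at 91.4 CPM, was below the 118 CPM of MHPA 3. GH was lowest in MHPA 2. TSHB varied 42.2-fold at low counts, and FGF10, a growth factor of the ventral hypothalamus and pituicytes, varied 20-fold between DPPJ 3 and MHPA 2. PRL was 8.6-fold higher in DPPJ 1 than in DPPA 3, and CHGA was highest in DPPA 3 while PRL, GHRHR, POU1F1 and DRD2 were lowest there.

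DPPJ 2 differed from the other hormone-rich libraries in its glial genes. GFAP, the intermediate filament of astrocytes, was at 2544 CPM in DPPJ 2 and between 4.14 and 132 CPM in the other 6, so that DPPJ 2 stood at 107% of the hormone-poor median. AQP4, the water channel of astrocytes, stood at 56.1% and MBP at 43.4% of that median in DPPJ 2. AVP was at 238 CPM there and at most 3.89 CPM in the other 6, OXT was at 2.87 CPM there and 0 in the others, and SST, somatostatin, was at 32.9 CPM against at most 0.0475 CPM. DPPJ 2 also held albumin at 479 CPM and the fibrinogen genes FGA, FGB and FGG at 141, 262 and 137 CPM, each at least 5 times the level in any other pituitary library with 1 CPM added. Its GH, at 17908 CPM, was the second highest of all.

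On the other side, the genes of central myelin formed the clearest group. Oligodendrocytes wrap axons of the brain in myelin, and they are not part of the anterior lobe. Of 14 listed genes 11 were found and considered, all 11 had a median below that of the hormone-poor class, and 7 were counted lower, at a median log2 fold of -6.20. MAG, an adhesion protein of myelin, ran from 0.138 CPM in MHPA 2 through a median of 1.48 to 60 CPM in DPPJ 2, and was at 203, 587, 299, 210 and 231 CPM in DPPA 1, MHPA 1 and MHPJ 1 to 3. Its class medians were 93.7-fold apart with 1 CPM added, 41.8-fold without DPPA 2, MHPA 2 or MHPA 3 and 45.6-fold without DPPJ 1. MBP, the basic protein of myelin, ran from 51.6 to 1177 CPM against 1644 to 9672 CPM. In both genes the highest hormone-rich value was that of DPPJ 2.

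CNP, SOX10, UGT8 and ASPA of the list were counted as well, 12.4-fold, 22.1-fold, 20.2-fold and 13.4-fold apart. MOG, MOBP, ERMN and OPALIN, proteins of central myelin, had log2 folds of -6.20, -6.37, -6.95 and -7.50 and were not counted. In each of them MHPJ 2 was low, at 1.05 CPM of MOG, 5.6 of MOBP, 14 of ERMN and 1.49 of OPALIN, below DPPJ 2. Without MHPJ 2 all 11 genes were counted.

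Of 12 astrocyte genes, all had a lower median in the hormone-rich class, at a list median of -3.30, but only S100B and GLUL were counted lower with all libraries. Without MHPJ 2 the count was 9 of 12, and without MHPJ 2 and DPPJ 2 it was 10, beside 7.96% and 8.75% of all genes. S100B, a calcium-binding protein of astrocytes, Schwann cells and folliculostellate cells, ran from 1.82 CPM through 12.2 to 474 CPM in DPPJ 2 and was at 987, 1802, 903, 3411 and 688 CPM in the hormone-poor libraries. GLUL, which makes glutamine, ran from 45.8 to 129 CPM against 300 to 812 CPM. GFAP was at 6588 CPM in DPPA 1, 4671 in MHPA 1, 2371 in MHPJ 1, 50.8 in MHPJ 2 and 1715 in MHPJ 3. GFAP, AQP4, SLC1A2 and SLC1A3 were thus high in 4 hormone-poor libraries and low in MHPJ 2, where AQP4 was at 3.76 CPM, SLC1A2 at 1.31 CPM and SLC1A3 at 3.15 CPM.

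Among the 12 largest folds of the lower genes were MAG, S100B, HEPACAM, TUBB4A, ACSBG1, RPH3A, GPR37L1, PAQR6, MYRF, MBP and SOX8, from 93.7-fold to 30.5-fold. Without MHPA 2, the folds of S100B, TUBB4A, PAQR6 and MYRF went from 74.7, 48.1, 36.2 and 34.2 to 41.2, 31.7, 21.5 and 19.1, and without MHPJ 1 that of RPH3A went from 37.8 to 23.1. MYRF, the factor that switches on myelin genes, ran from 0.467 to 8.11 CPM against 56.3, 122, 69.6, 8.13 and 61.3 CPM. MYRF was separated by the least margin, between DPPJ 2 at 8.11 and MHPJ 2 at 8.13 CPM. TUBB4A, a tubulin of myelinating cells and neurons, ran from 5.26 to 168 CPM against 438 to 932 CPM. HEPACAM, an adhesion protein of astrocytes, ran from 0.0424 to 57.3 CPM against 107 to 166 CPM. RPH3A, a protein of synaptic vesicles, was the neuronal gene of the 12, at most 3.49 CPM in the first class and 55.3, 11.6, 76.1, 5.25 and 79.7 CPM in the second. DPPJ 2 had the highest hormone-rich level of every one of the 12.

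Of 15 genes of the neuronal cytoskeleton and synapse, none had a higher median in the hormone-rich class and 3 were counted lower, at a list median of -1.84. The 3 were NEFH, a heavy neurofilament, at 4.76 to 26.5 CPM against 184, 90, 110, 55.4 and 119 CPM, TUBB3, a tubulin of neurons, 10.3-fold apart, and SYN2, a vesicle protein, 10.3-fold apart. Without MHPJ 1 or MHPJ 3 the fold of SYN2 was 5.95, and with RPKM 2 of the 15 were counted. SNAP25, a fusion protein that endocrine cells use too, had class medians 1.03-fold apart, with 548 CPM in the first class and 565, 159, 1448, 17.9 and 1350 CPM in the second. Without MHPJ 2, 5 of the 15 were lower. Of 11 genes of transmitter synthesis and transport found, 5 were considered. None of the 5 was counted lower with all libraries and 4 were without MHPJ 2. A gene below 1 CPM in every hormone-rich library, as 6 of the 11 were, passes only through hormone-poor libraries, which favours a count as lower. GAD2, which makes GABA, ran from 0.346 CPM through 1.15 to 28.3 CPM in DPPJ 2 and was at 295, 39.2, 422, 3.41 and 354 CPM in the hormone-poor libraries.

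**Figure D3:**
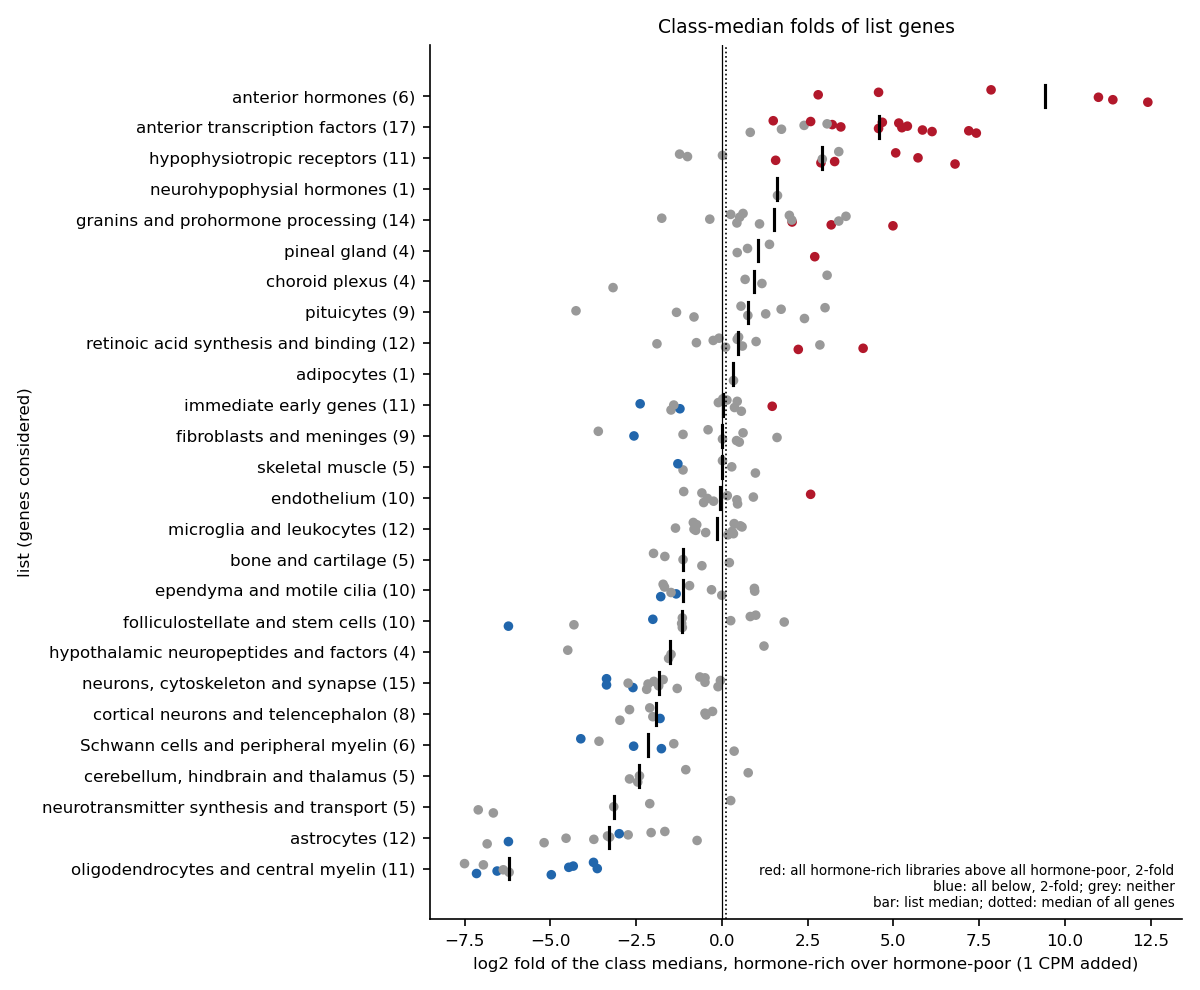
log2 fold of the class medians, hormone-rich over hormone-poor with 1 CPM added (horizontal axis), of each considered gene, by marker list (vertical axis), with counted genes in colour, a bar at each list median and a dotted line at the median of all genes, 0.127. The anterior hormones and factors lie farthest right, with medians of 9.41 and 4.57, and central myelin and astrocytes farthest left, with medians of -6.20 and -3.30.

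The hormone-poor libraries differed in the genes they held besides glia and myelin. DPPA 1 held AVP at 1051 CPM, against at most 0.428 CPM in the other hormone-poor libraries, and OXT at 5.55 CPM against 0. It held hypothalamic genes as well: PMCH, melanin-concentrating hormone, was at 67.1 CPM, SST at 70.5 CPM, SIM1, a factor of the neurons that make AVP and OXT, at 11.1 CPM, and GHRH at 3.6 CPM. PMCH and SIM1 stayed at or below 0.5 CPM in the other 4 libraries, GHRH was at 0 there, and SST was at 61 CPM in MHPJ 3. TRH, thyrotropin-releasing hormone, was higher in MHPJ 1, at 23.5 against 18.7 CPM in DPPA 1, and NPY, a neuropeptide of feeding, was higher in MHPJ 3, at 22.8 against 20.3 CPM. The summed level of 12 hypothalamic genes was 214 CPM in DPPA 1 and 5.35 to 86.8 CPM in the other 4. DPPA 1 was also the library that kept low levels of CGA, PITX1, DLK1 and SIX6. RAX, a factor of pituicytes and the hypothalamic floor, was at 3.28 CPM in DPPA 1 and at most 0.175 CPM in the others of its class, and at 0.475 to 17 CPM in the hormone-rich libraries.

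MHPA 1 held genes of the choroid plexus, the tissue that secretes cerebrospinal fluid. TTR, the transthyretin gene, was at 9995 CPM there and at 9.89, 0.186, 5.07 and 13.2 CPM in DPPA 1 and MHPJ 1 to 3. KCNJ13, a potassium channel of that epithelium, was at 184 CPM against at most 0.786 CPM, and OTX2 at 150 CPM. The 6 choroid plexus genes summed to 10532 CPM in MHPA 1 and to 23.2 to 32.2 CPM in the other hormone-poor libraries, against 37.4 to 105 CPM in the hormone-rich ones. Klotho (KL), SLC13A4 and TRPM3 were at 79.6, 405 and 747 CPM, at least 5 times any other pituitary library. The 10 genes of motile cilia summed to 1568 CPM in MHPA 1, against 304 to 684 CPM in the other hormone-poor libraries, with FOXJ1, the switch for motile cilia, at 28.7 CPM and CCDC39 at 313 CPM.

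MHPJ 1 and MHPJ 3 resembled each other, with r of 0.968, and held genes of the forebrain. SLC17A7, a glutamate transporter of cortical neurons, was at 62.3 and 92.7 CPM in MHPJ 1 and MHPJ 3 and at most 0.437 CPM in the others of the class. NEUROD6, a factor of cortical neurons, was higher in MHPJ 3, at 39.6 against 11.3 CPM, and DLX1, a factor of forebrain GABA neurons, was higher in MHPJ 1, at 45.9 against 5.47 CPM. DLX1 reached 11.3 CPM in a pituitary library outside this pair, above its level in MHPJ 3. In both MHPJ 1 and MHPJ 3, POMC, CGA, FSHB, TSHB and POU1F1 had no read. AVP was at 0.0619 and 0.0643 CPM, so the defining hormones of both lobes were at or near 0 in these libraries labelled pituitary.

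MHPJ 2 held genes of peripheral nerve. The 6 Schwann cell genes found summed to 35282 CPM there and to 69.8 to 272 CPM in the other hormone-poor libraries. PRX, which Schwann cells need for stable myelin, was at 5049 CPM against 12.4 CPM or less, PMP22 at 1851 against at most 32.9 CPM, and PMP2 at 6088 against at most 106 CPM. MBP, which both kinds of myelin share, was at 2712 CPM, and SOX10 at 117 CPM. MHPJ 2 also held skeletal muscle genes at a sum of 2618 CPM against 62.8 to 115 CPM, with the muscle creatine kinase CKM at 499 CPM, red cell genes at 259 CPM against 0.193 to 0.714 CPM, with the beta globin HBB at 209 CPM, and the cartilage collagen COL2A1 at 194 CPM. In all, 147 genes of at least 20 CPM in MHPJ 2 were at least 5 times any other pituitary library with 1 CPM added. MHPA 1 had 21 such genes, DPPJ 2 had 4, MHPJ 1 had 3, DPPA 1 had 1 and the other libraries had none, a rule chosen after the values were seen.

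**Figure D4:**
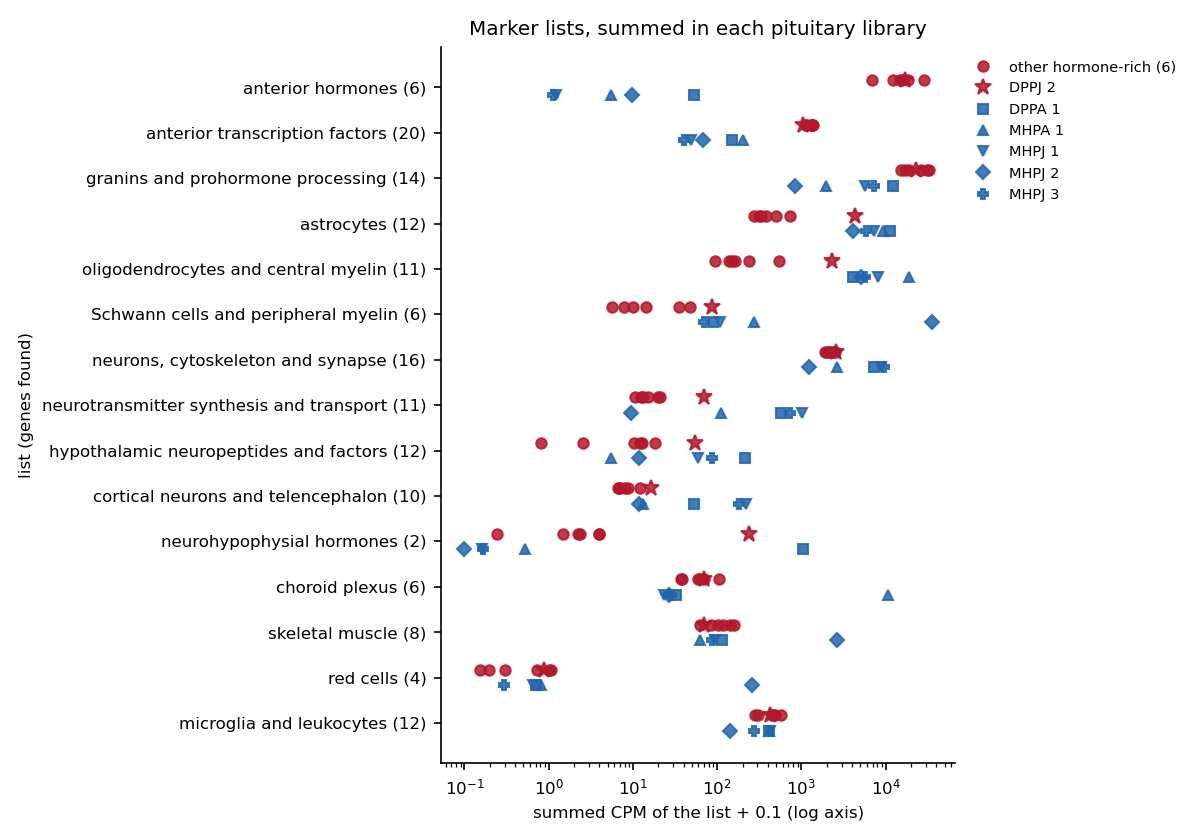
Summed CPM of 15 marker lists (0.1 added, log axis) in each pituitary library, the hormone-rich ones in red above and the hormone-poor ones in blue below each line, with a symbol for each hormone-poor library and a star for DPPJ 2. The sums of the 6 anterior hormones besides GH are 6860 to 28144 CPM in the hormone-rich and 1.03 to 53 CPM in the hormone-poor class, and the libraries with the highest sums differ from list to list, from MHPJ 2 in peripheral myelin to MHPA 1 in choroid plexus and DPPA 1 in the neurohypophysial hormones.

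Other lists separated the classes in few genes or none, beside 5.89% of all genes higher and 4.13% lower. Of 12 genes of microglia and leukocytes none was counted, and the summed level was 281 to 569 CPM in the hormone-rich and 141 to 429 CPM in the hormone-poor class. Of 11 immediate early genes EGR1 was higher, at 77.4 to 292 against 26.5 to 76.8 CPM, and JUN and EGR3 were lower. Of 4 considered genes of the pineal list TPH1, which makes serotonin, was higher, at 18.6 to 64.7 against 2.71 to 7 CPM, while AANAT, which the pineal needs for melatonin, had no read in the hormone-rich class. Of 9 genes of fibroblasts and meninges PDGFRA was lower, 5.89-fold, a receptor that oligodendrocyte precursors carry as well, while the collagens COL1A2 and COL3A1 were highest in MHPJ 2. Of 10 cilia genes FOXJ1 and DNAH9 were lower, and neither with RPKM. Of 6 Schwann cell genes PMP22, PRX and CDH19 were lower, and 2 were with RPKM.

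Of 10 genes of folliculostellate and stem cells, S100B and GFRA2 were lower and none was higher, and SOX2, a factor of stem cells in the gland and of neural progenitors, was at 6.03 to 31.6 CPM against 47.1, 37.3, 41.8, 9.1 and 34.7 CPM. Without MHPJ 2, 2 of the 10 were higher and 3 lower. Of 9 pituicyte genes none was counted, and 6 of 9 had a higher median in the hormone-rich class. Of 8 telencephalic genes EMX1 was lower, of 5 muscle genes TNNT1 was, and no gene was counted among 5 of cerebellum, hindbrain and thalamus, 5 of bone and cartilage, 4 of hypothalamus, 4 of choroid plexus, 1 of adipocytes and AVP. No red cell gene passed the filter.

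The classes could also be compared within 3 contrasts that share no library: DPPJ against MHPJ, DPPA 2 and 3 against DPPA 1, and MHPA 2 and 3 against MHPA 1. The adult contrasts hold breed and stage fixed, and each has a lone hormone-poor library, so that neither has a replicate check on that side. At least 2-fold in the arm means and the same way in all 3 were 592 genes higher, 4.08% of those considered, and 777 lower, 5.36%. Of these, 506 higher and 411 lower genes were also in the counts above, which is 59.2% of the 855 and 85.5% of the 592, and 68.6% of the 599 and 52.9% of the 777. Across genes the log2 folds correlated with r of 0.761 between the juvenile and adult DP contrasts, 0.596 between the juvenile and adult MH contrasts and 0.649 between the adult contrasts, again a description, since genes are not independent.

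All 6 anterior hormones and 14 of 17 factors were higher in all 3 contrasts, the 13 counted factors and GATA2 among them. PRL had log2 folds of 13.03 in the juvenile, 9.94 in the adult DP and 12.46 in the adult MH contrast, and POU1F1 7.34, 7.02 and 7.69. All 11 central myelin genes and 9 of 12 astrocyte genes were lower in all 3. MAG had log2 folds of -3.26, -5.36 and -8.77, the first of them with DPPJ 2 among the hormone-rich libraries. AVP had log2 folds of opposite sign, 6.29 in the juvenile, -8.36 in the adult DP and 1.34 in the adult MH contrast. The juvenile fold rested on DPPJ 2, at 238 CPM beside 3.89 and 0.143 CPM in DPPJ 1 and 3. The adult DP fold rested on DPPA 1 at 1051 CPM. The adult MH fold compared low values, 3.81 and 1.4 CPM with 0.428 CPM. TTR had log2 folds of 0.22, -3.32 and -13.06 in the juvenile, adult DP and adult MH contrast, and CHGA of 4.93, 2.30 and 6.41.

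**Figure D5:**
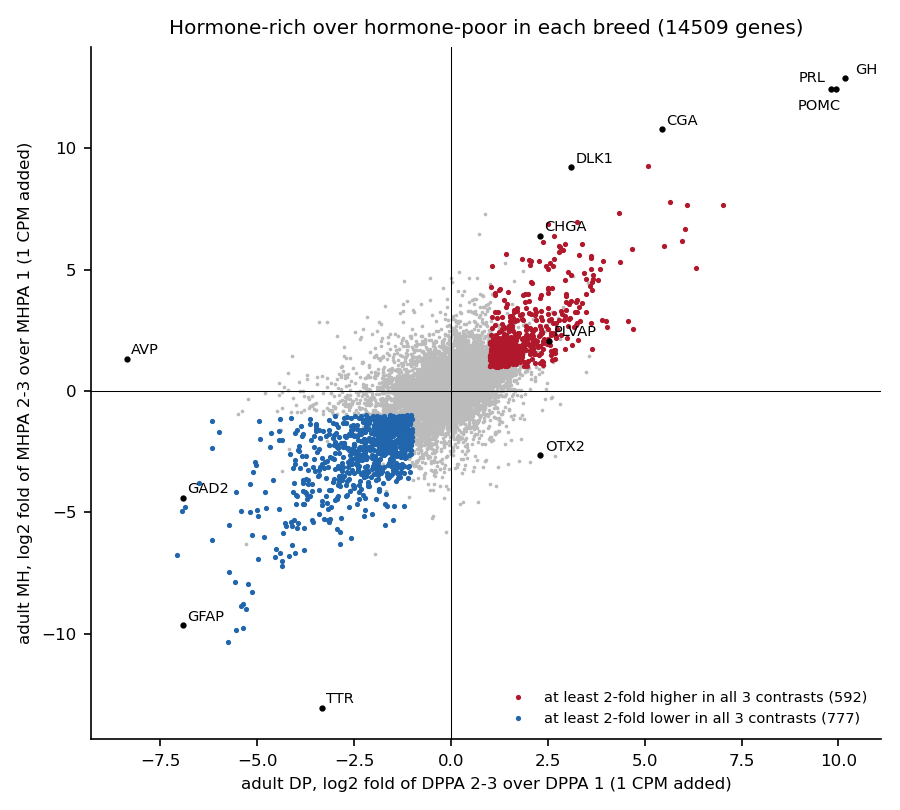
log2 fold of hormone-rich over hormone-poor adult libraries with 1 CPM added in DP (horizontal axis, DPPA 2 and 3 over DPPA 1) and in MH (vertical axis, MHPA 2 and 3 over MHPA 1), 1 point per gene for 14509 genes, with the 592 and 777 genes that were 2-fold apart the same way in all 3 contrasts in red and blue. The hormone genes lie at the top right, GFAP at the bottom left, and AVP and TTR lie far along one axis each.

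The juvenile contrast is the labelled comparison of breeds in which every library of one group was hormone-rich and every library of the other hormone-poor, so breed and class cannot be told apart in it and its test says nothing of either alone. The labels name 3 samples a group, and the p-values measure the spread between these samples. The comparison was taken because GH split its groups, so p-values of genes that run with GH are no support for the classes. By edgeR's quasi-likelihood test 606 of 14603 genes, 4.15%, were higher in DPPJ at a Benjamini-Hochberg adjusted p under 0.05 and over 2-fold, and 669, 4.58%, were lower. All 6 anterior hormones besides GH rose by this test, PRL by 14.85 ± 1.48 (log2 fold ± SE, adjusted p = 0.0109) and FSHB by 13.22 ± 0.739 (adjusted p = 0.00407) by edgeR with 3 libraries a group, where fitted folds of genes near 0 depend on the prior count. Of 17 factors 10 rose, and PITX1, with a log2 fold of 5.75 ± 1.75, had an edgeR adjusted p of 0.0859. Of 11 central myelin genes only CNP, at -2.91 ± 0.523, and ASPA, at -3.68 ± 0.766, fell, with edgeR adjusted p of 0.0288 and 0.0388, and MBP had a log2 fold of -2.58 ± 0.911 with an adjusted p of 0.117. GLUL of the 12 astrocyte genes fell as well, and TUBB3 and NEFH of the 15 neuronal ones.

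The counts moved with each library left out, and 2 libraries against 3 leave fewer degrees of freedom. Without MHPJ 2 there were 1730 higher and 2317 lower genes, without DPPJ 1 there were 8 and 0, without DPPJ 3 there were 9 and 0, without DPPJ 2 there were 96 and 127, without MHPJ 1 there were 92 and 79, and without MHPJ 3 there were 152 and 119. At an unadjusted p under 0.05 and over 2-fold, edgeR gave 1110 higher and 1852 lower genes with all 6 libraries, 919 and 1234 without DPPJ 1, and 935 and 1225 without DPPJ 3. The direction split, 47.5% higher, became 36.2% with DESeq2, 57.9% with all 12 pituitary libraries in 1 edgeR fit and 69.6% with limma on log2(RPKM + 1). Of 604 higher genes that were also considered above, 66.2% were at least 2-fold higher in the adult DP contrast, against 9.01% of all genes, and 67.7% in the adult MH contrast, against 16.3%. Of 660 lower genes 59.2% were at least 2-fold lower in adult DP, against 11.8% of all, and 53.8% in adult MH, against 11.6%. The adult classes were chosen by GH too, so these shares are a description.

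Outside the lists, the genes whose levels ran most nearly in the order of GH over the 12 libraries were taken by Spearman's rho, which is given as a description because the classes fix much of the order. They were CCDC127 at 0.986, RPS10 at 0.965, and NUCB2, ECE1, CDK5RAP3, CCDC109B, LSM3, ELAC1, MST1 and TMC2, all at 0.958. NUCB2, the precursor of nesfatin and a calcium-binding protein of the secretory pathway, had the largest fold of these, at 510 to 1015 CPM against 169, 114, 66.4, 131 and 74.6 CPM, or 7.57-fold. ECE1, a membrane protease that activates endothelin, was 4.23-fold higher, and CCDC127 only 1.31-fold. A close order with GH thus came with small as well as large folds.

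The genes in the most nearly opposite order were EVI5L and PPARGC1A at a rho of -0.965, AXL and RYR1 at -0.958, GRIA3 and ARRDC5 at -0.944, ARHGAP35 and CHRM1 at -0.937, and EHD3 and TBL1XR1 at -0.93. GRIA3, an AMPA receptor subunit of neurons, was at 7.27 to 30.3 CPM in the hormone-rich class and at 40.1, 21.8, 140, 60.9 and 224 CPM in DPPA 1, MHPA 1 and MHPJ 1 to 3. CHRM1, a muscarinic receptor of forebrain neurons, was at most 0.485 CPM in the first class and at 7.21, 0.714, 19, 0.7 and 25.3 CPM in the second. EVI5L, which acts on Rab proteins in membrane traffic, was at 18.1 to 29.9 against 45.8 to 74.7 CPM.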

How the data were processed

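RNA-seq was made from 24 tissue samples, and the 12 pituitary libraries were compared here. The authors deposited a table of read counts per gene and a table of RPKM (reads scaled by gene length and by library total), both used here as deposited. The submitters' notes name bcl2fastq, TopHat2 and edgeR, and the labels describe ribosomal RNA depletion and directional paired-end libraries. The study's methods instead name single-end reads and Salmon on EquCab 3.0, and which of these made the deposited counts and RPKM is not given in the sources used here. The strand setting of the counting is not given in the sources used here, so overlapping and antisense genes cannot be told apart.

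CPM was the read count over the library's total on genes, times 1000000, and ratios had 1 CPM added. Gene lists, classes and rules were chosen with earlier results of these data known. The named genes are all list members found, the 12 largest counted folds in each direction with a symbol, and the 10 genes most and least like GH outside the lists. Of 289 list entries 268 were found by symbol or, for 12, by another name or description, and the others were not analysed here. Some genes that this rule names are counted but not reported here. Class comparisons are descriptions. The juvenile comparison used edgeR 4.0.16 (quasi-likelihood, TMM, filterByExpr at 10 reads) in R 4.3.3, tested on simulated data, with DESeq2 1.42.0 and limma 3.58.1 as alternatives. The SE given with its log2 folds was back-calculated as the absolute log2 fold over the square root of the F statistic, not estimated by the fit. Depth limits low genes: 3 reads are 0.127 to 0.262 CPM. No source states that replicate numbers pair the samples.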

Additional observations from a re-analysis of the deposited data

Results flagged for a closer look

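For each marker list the summed CPM of every library was searched, in the 7 hormone-rich and in the 5 hormone-poor libraries, for a library far from the rest of its class by Dixon's criterion. The reads on genes, the genes with a read and the mitochondrial share were searched in the same way. Of these 60 searches, over 27 lists and 3 library measures in both classes, 20 found a library apart, all of them in list sums, where chance gives about 1 in 20. Most of the 20 belonged to DPPJ 2 and MHPJ 2.

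In DPPJ 2 the sums were far above the other 6 hormone-rich libraries for the neurohypophysial hormones (241 CPM), astrocytes (4356 CPM), central myelin (2291 CPM), transmitter synthesis and transport (69.3 CPM), hypothalamic genes (53.8 CPM) and folliculostellate and stem cells (926 CPM). In MHPJ 2 they were far above the other 4 hormone-poor libraries for peripheral myelin (35282 CPM), pituicytes (6728 CPM, of which VIM took 6470 CPM), endothelium (1102 CPM), fibroblasts and meninges (2274 CPM), red cells (259 CPM), skeletal muscle (2618 CPM), adipocytes (38.7 CPM, of which FABP4 took 37.3 CPM) and bone and cartilage (243 CPM). In DPPA 1 they were far above for the 6 anterior hormones besides GH (53 CPM, of which CGA took 44.8 CPM) and the neurohypophysial hormones (1057 CPM), and in MHPA 1 for central myelin (18974 CPM) and choroid plexus (10532 CPM). The remaining values were the cilia genes in DPPA 3 (612 CPM) and the adipocyte genes in DPPJ 3 (13.6 CPM, of which FABP4 took 13.3 CPM).

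In 3 lists the adult breeds pointed opposite ways between hormone-rich and hormone-poor libraries, and the difference was not tested, since each breed has 1 hormone-poor adult. The neurohypophysial hormones had a log2 fold of -8.37 in DP and 1.25 in MH, the hypothalamic genes -4.73 and 0.93, and the choroid plexus genes 1.28 and -7.67. In each of them 1 adult hormone-poor library, DPPA 1 for the first and second list and MHPA 1 for the third, held the high value. The MH folds of the first and second list rested on low sums. These were 3.81 and 1.4 CPM in MHPA 2 and 3 against 0.428 in MHPA 1, and 12 and 10.2 against 5.35 CPM.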

How the results depend on the processing

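For the 68 named genes counted between the classes, GH among them, 340 values were recomputed with 3 other scalings and as the extremes of leaving out 1 library. All kept the direction of the fold. For the leave-one-out values the counting rule fixed that outcome, since every hormone-rich library already lay on one side of every hormone-poor one. Of the 340 values 19 moved by more than the spread between libraries, 11 of them with RPKM. Leaving out 1 library moved the fold of 22 of the 68 genes by over 1.5 times. Leaving out MHPA 1, MHPJ 1 or MHPJ 3 brought the log2 fold of ARHGAP36 to as little as 7.11, EPCAM to 5.16 and PITX1 to 4.78, and leaving out MHPA 1, MHPJ 1 or MHPJ 2 that of DRD2 to 3.53. A fold of 4 left 237 genes higher and 257 lower between the classes and 130 and 214 in the 3 contrasts, by its own construction. Leaving out 1 library gave 832 to 1106 higher and 595 to 1146 lower genes between the classes, the last without MHPJ 2, and 1255 lower without MHPJ 2 and DPPJ 2, an alternative chosen after seeing the data. In the 3 contrasts it gave 553 to 665 and 698 to 868. These could not be computed without DPPA 1 or MHPA 1, which leaves an arm empty. Dropping the low-value filter changed no class count, since a counted gene passes it by construction.

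The juvenile test moved with nearly every choice, and the cause was not tested. Leaving out 1 library gave 8 to 1730 higher and 0 to 2317 lower genes. DESeq2 gave 1083 higher and 1908 lower, edgeR with all 12 libraries 223 and 162, limma on log2(RPKM + 1) 998 and 435, no low-count filter 436 lower, and an unadjusted p under 0.05 gave 1110 and 1852.

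With the replicate number as a block edgeR called 0 genes higher and 0 lower (1113 and 1361 at an unadjusted p under 0.05 and 2-fold). Deviations of same-numbered DPPJ and MHPJ libraries from their group means correlated at -0.0837, -0.108 and -0.000717. Such r cannot show whether the numbers pair the samples, and no source states that they do.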

Other observations

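Gene families outside the lists, chosen after the values were seen, separated the classes to different degrees. All 64 cytosolic ribosomal protein genes had a higher median in the hormone-rich class with CPM and RPKM, and 63 of 64 with TMM and size factors, at a median log2 fold of 1.15 against 0.127 over all genes. By the counting rule 26 of them were higher and none lower with CPM, 16 with TMM, 15 with size factors and 32 with RPKM. Their median was 1.08 in the juvenile, 1.15 in the adult DP and 0.68 in the adult MH contrast. RPS10 was an example, at 913 to 1354 CPM against 424, 559, 400, 686 and 343 CPM in DPPA 1, MHPA 1 and MHPJ 1 to 3. Of 69 mitochondrial ribosomal protein genes only MRPL17 was higher, at a family median of 0.30.

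A family taken by gene symbol joined protein disulfide isomerases with the translocon, signal peptidase, the signal recognition particle and genes named SEC11 to SEC13. They act on secreted proteins at the endoplasmic reticulum. The family held 22 genes, of which 11 were higher and none lower, at a median of 1.28. Under TMM or size factors 10 were higher, and 13 with RPKM. SSR4, PDIA5, SPCS3, PDIA3 and SEC61B were among the 11, and 20 of 22 lay above 0 under every scaling. Semaphorins, plexins and ephrins with their receptors, guidance cues of axons and vessels, included 43 genes, at a median of -0.37. Of these 9 were lower and 2 higher, beside 4.13% and 5.89% of all genes, and 7 were lower with RPKM. EPHA3, SEMA7A, EPHA5, SEMA5A and PLXNB3 were among the lower and EPHA1 and EFNA5 were the higher ones. Of 64 potassium channel genes 6 were higher, KCNJ5 and KCNH6 among them, and 4 were lower, KCNAB1, KCNJ10, KCND3 and KCNA1, shares near those of all genes, 5.89% and 4.13%. With TMM 4 were higher and 4 lower, and with size factors 4 and 5.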
